A study of Neurospora crassa with 12 samples.

Results

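The 10 genes described here are 5 regulators and 5 products of asexual spore formation (conidiation) in the filamentous fungus Neurospora crassa. The regulators were fl, acon-2, acon-3, csp-1 and csp-2, and the products were con-6, con-8, con-10, con-13 and eas. They were chosen by name and locus number from 9730 genes counted in each library, and all 10 passed the filter on low counts that left 8496 genes for testing. PolyA RNA was sequenced from mycelium of 3 strains grown for 16 h with shaking at 32 °C in minimal medium with 1.5% sucrose, with 4 libraries per strain and 12 in all. The first mutant, strain N3944, is labelled mat x with dim-5 replaced by the bar+ marker (Δdim-5). Its missing enzyme, DIM-5, trimethylates lysine 9 of histone H3, a modification found in silent heterochromatin. The second mutant, strain NKL2, is labelled mat A with the heterochromatic region LGIIK9het25 replaced by the hph marker (ΔLGIIK9het25). The wild type is strain N150, labelled mat A (WT). Each genotype was represented by a single strain, so the deletion and any other difference of that strain cannot be told apart. The labels do not say whether the libraries of a strain came from separate cultures. The p-values set differences between strains against the spread between these libraries, and whether they extend to new cultures is unknown.

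In Neurospora, hyphae of a mycelium that meets air grow upward as aerial hyphae, which bud into chains of cells that later separate as powdery conidia. The gene fl (fluffy) encodes a zinc cluster transcription factor needed for the budding of conidial chains. Mutants of acon-2 and acon-3 stop at early steps of conidiophore formation. Mutants of csp-1 and csp-2 form conidia that fail to separate, and both genes encode transcription factors, csp-1 of the zinc finger kind and csp-2 of the grainyhead kind. The con genes were found as transcripts that accumulate during conidiation, and the roles of their proteins are largely unknown. The gene eas (easily wettable, also called ccg-2 and bli-7) encodes the hydrophobin that forms the water-repellent rodlet layer on conidia. Mycelium kept under liquid with shaking normally forms few conidia.

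Library totals in genes ran from 7164944 to 23925695 counts, and a floor of 3 counts corresponded to 0.121 to 0.439 CPM. CPM, the unit of level used throughout, is a count scaled to a common library size after trimmed mean (TMM) scaling. Reads outside genes took 3.62% to 36.8% of a library. The labels were checked first. The dim-5 gene (NCU04402) had 0, 0, 1 and 2 counts in the Δdim-5 libraries, against 86, 50, 109 and 52 in the WT libraries. The mycelial markers hex-1, which encodes the Woronin body protein that plugs hyphal pores, so, a hyphal fusion gene, pma-1, the plasma membrane proton pump, and act, actin, were present in every strain. Their summed level was 8108 to 10776 CPM in Δdim-5, 8430 to 16547 CPM in ΔLGIIK9het25 and 10903 to 14937 CPM in WT. In edgeR 0 of the 4 were called in either mutant against WT, with 2 at an unadjusted p under 0.05 in Δdim-5 and 1 in ΔLGIIK9het25. Of all tested genes, 16.5% were called in Δdim-5 against WT and 4.32% in ΔLGIIK9het25 against WT. The gene so was called lower in Δdim-5 than in ΔLGIIK9het25 (adjusted p = 0.0085 in edgeR), where 16.7% of all tested genes were called. The loss of the LGIIK9het25 region was not checked here. In a bulk sample, more cells that express a gene and more RNA of it per cell cannot be told apart.

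In edgeR none of the 10 genes was called in any of the comparisons between strains. DESeq2 called only con-13, in Δdim-5 against WT, and gave no adjusted p for eas. For each gene the libraries of any pair of strains overlapped. Pooled over the 3 strains, each of the 5 products had a larger SD between libraries than each regulator, and the hydrophobin gene eas had the largest of all tested genes. A single Δdim-5 library, replicate 2, held the highest level among all 12 libraries of 7 of the 10 genes. The share of all tested genes that were highest in that library was not computed.

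**Figure D1:**
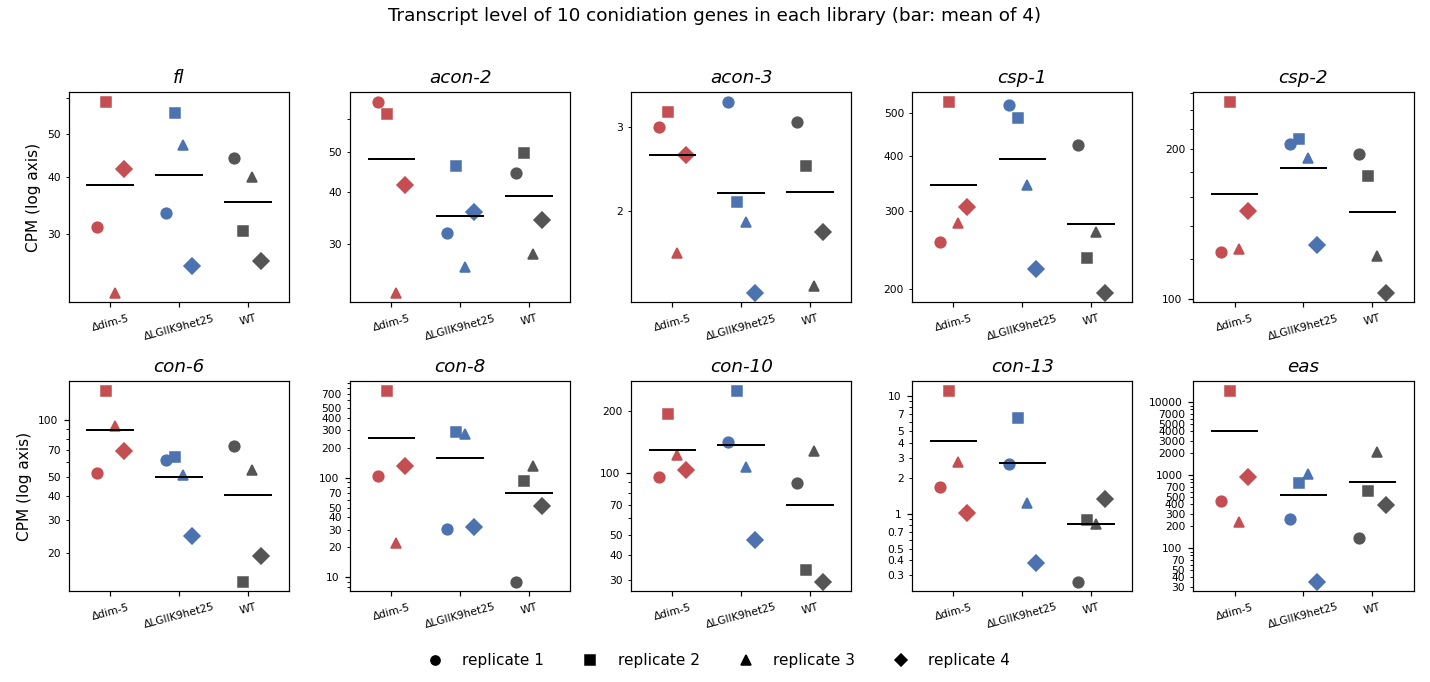
Level of each of the 10 genes in the 12 libraries, in CPM on log axes that differ between panels, with Δdim-5, ΔLGIIK9het25 and WT from left to right. Symbols mark replicates 1 to 4 and bars the mean of a strain. The strains overlap in every panel, and Δdim-5 replicate 2 stands at 14361 CPM for eas.

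The regulators were taken first. The gene fl (NCU08726) had 31.0, 58.8, 22.2 and 41.7 CPM in Δdim-5 replicates 1 to 4. It had 33.3, 55.6, 47.2 and 25.5 CPM in ΔLGIIK9het25, and 44.2, 30.5, 40.1 and 26.1 CPM in WT. The ranges of the 3 strains overlapped, and that of WT was the narrowest. The highest value was in Δdim-5 replicate 2 and the lowest in Δdim-5 replicate 3. In edgeR the log2 fold change was 0.12 in Δdim-5 against WT (SE 0.307, adjusted p = 0.824) and 0.19 in ΔLGIIK9het25 against WT (SE 0.307, adjusted p = 0.85). The 95% intervals ran from -0.54 to 0.79 and from -0.47 to 0.86 on the log2 scale, and their upper bounds correspond to 1.72-fold and 1.81-fold higher levels in the mutants.

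The separation gene csp-1 (NCU02713) had 255, 530, 282 and 307 CPM in Δdim-5, 521, 487, 345 and 222 CPM in ΔLGIIK9het25, and 423, 235, 270 and 196 CPM in WT. ΔLGIIK9het25 had the highest mean, 394 ± 137 CPM against 281 ± 99.4 CPM in WT (SD, n = 4), with overlapping libraries (log2 fold change 0.49, SE 0.314, edgeR adjusted p = 0.527). Its partner in conidial separation, csp-2 (NCU06095), had 124, 249, 126 and 150 CPM in Δdim-5, 205, 209, 192 and 128 CPM in ΔLGIIK9het25, and 196, 177, 122 and 103 CPM in WT. In ΔLGIIK9het25 replicates 1 to 3 lay close together and replicate 4 lower, while WT had its own high and low libraries and Δdim-5 replicate 2 was the highest of all. The csp-2 log2 fold change was 0.12 in Δdim-5 (adjusted p = 0.803) and 0.30 in ΔLGIIK9het25 (adjusted p = 0.685), each against WT in edgeR.

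The gene acon-2 (NCU00478) had 66.0, 61.8, 22.9 and 41.7 CPM in Δdim-5, 32.0, 46.3, 26.4 and 36.0 CPM in ΔLGIIK9het25, and 44.6, 49.8, 28.4 and 34.3 CPM in WT. Its highest library of all 12 was Δdim-5 replicate 1. The gene acon-3 (NCU07617) was the lowest regulator, with 2.63 ± 0.701 CPM in Δdim-5, 2.18 ± 0.86 CPM in ΔLGIIK9het25 and 2.19 ± 0.738 CPM in WT (SD, n = 4). These levels rest on 170, 110 and 86 counts over the 4 libraries of each strain, with exact 95% Poisson intervals of 145 to 198, 90.4 to 133 and 68.8 to 106 counts that cover counting error only. Across the 5 regulators the smallest and largest log2 values were 0.12 and 0.29 for Δdim-5 over WT, and -0.16 and 0.49 for ΔLGIIK9het25 over WT.

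Among the products, eas (NCU08457) had the highest mean level and the widest range. It had 452, 14361, 232 and 950 CPM in Δdim-5 replicates 1 to 4. It had 252, 781, 1056 and 35.0 CPM in ΔLGIIK9het25, and 138, 612, 2100 and 391 CPM in WT. Within a strain the highest library exceeded the lowest 61.9-fold in Δdim-5, 30.2-fold in ΔLGIIK9het25 and 15.2-fold in WT. In Δdim-5 replicate 2 this single gene took 1.38% of all gene counts, and in the other 11 libraries it took from 0.00351% to 0.229%.

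The strain means of eas were 3999 ± 6915 CPM in Δdim-5, 531 ± 470 CPM in ΔLGIIK9het25 and 810 ± 881 CPM in WT (SD, n = 4). The log2 fold change was 2.30 in Δdim-5 against WT (SE 1.28, adjusted p = 0.25), -0.61 in ΔLGIIK9het25 against WT (SE 1.23, adjusted p = 0.886) and 2.91 in Δdim-5 against ΔLGIIK9het25 (SE 1.31, adjusted p = 0.154 in edgeR). Without Δdim-5 replicate 2 the strain mean was 545 ± 368 CPM (SD, n = 3), and the log2 fold changes of Δdim-5 were -0.57 against WT and 0.02 against ΔLGIIK9het25. Without WT replicate 3 the value of ΔLGIIK9het25 against WT was 0.48. For eas the sign of the difference from WT was thus set by 1 library in each mutant comparison. The 95% intervals span from -0.46 to 5.07 and from -3.26 to 2.04 on the log2 scale.

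The conidiation gene con-8 (NCU09235) had 105, 747, 21.9 and 132 CPM in Δdim-5, 30.8, 286, 278 and 31.7 CPM in ΔLGIIK9het25, and 9.04, 92.7, 130 and 51.9 CPM in WT. Each strain held both low and high libraries, and in ΔLGIIK9het25 replicates 2 and 3 were high while replicates 1 and 4 were low. The log2 fold change was 1.83 in Δdim-5 against WT (SE 1.04, adjusted p = 0.261) and 1.14 in ΔLGIIK9het25 against WT (SE 1.02, adjusted p = 0.688 in edgeR). Without Δdim-5 replicate 2 the first of these was 0.29, and the difference between the mutants was -0.87 in place of 0.69.

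The gene con-10 (NCU07325) had 95, 193, 122 and 104 CPM in Δdim-5, 142, 250, 106 and 47.4 CPM in ΔLGIIK9het25, and 88.9, 33.8, 127 and 29.6 CPM in WT. All 4 Δdim-5 libraries exceeded 3 of the 4 WT libraries, and WT replicate 3 lay among them. The log2 fold change was 0.87 in Δdim-5 (SE 0.509, adjusted p = 0.272) and 0.96 in ΔLGIIK9het25 (SE 0.51, adjusted p = 0.403), each against WT in edgeR. Without Δdim-5 replicate 2 the value of Δdim-5 was 0.61.

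The gene con-6 (NCU08769) had 53.1, 142, 92.8 and 68.7 CPM in Δdim-5, 62.0, 64.3, 51.2 and 24.6 CPM in ΔLGIIK9het25, and 72.7, 14.2, 54.9 and 19.3 CPM in WT. WT replicates 2 and 4 were below every Δdim-5 library, and WT replicates 1 and 3 lay within the Δdim-5 range. The log2 fold change of Δdim-5 against WT was 1.14 (SE 0.483), with an unadjusted p of 0.0345 and an adjusted p of 0.131 in edgeR. Without WT replicate 1 the log2 fold change was 1.58 and con-6 was called (edgeR adjusted p = 0.0499). Without Δdim-5 replicate 2 the log2 fold change was 0.82 (adjusted p = 0.324). In the reference annotation con-6 overlaps NCU08768, which was lower in Δdim-5 than in WT (log2 fold change -1.27, adjusted p = 0.0036). Counting ignored strand, so the values of con-6 are uncertain to that extent.

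The gene con-13 (NCU07324) was the lowest of the products, with 1.70, 11.1, 2.75 and 1.01 CPM in Δdim-5, 2.66, 6.51, 1.22 and 0.376 CPM in ΔLGIIK9het25, and 0.263, 0.878, 0.81 and 1.33 CPM in WT. In counts these were 17, 151, 52 and 25 in Δdim-5, 33, 59, 20 and 5 in ΔLGIIK9het25, and 3, 6, 11 and 11 in WT. WT replicate 1 stood at the floor of 3 counts. Only WT replicate 4 reached the range of Δdim-5, where replicate 4 was lowest. The log2 fold change of Δdim-5 against WT was 2.35 (SE 0.909), with an unadjusted p of 0.0225 and an adjusted p of 0.0988 in edgeR. DESeq2 called con-13 higher in Δdim-5 (adjusted p = 0.028). EdgeR also called it when the log2 of each library's percentage of non-genic reads entered the fit (log2 fold change 3.65, adjusted p = 0.0266). That percentage was 3.62% to 7.29% in Δdim-5 and 8.85% to 36.8% in WT, without overlap, so in that fit its part and that of the strain cannot be fully told apart. Without Δdim-5 replicate 2 the log2 fold change was 1.17 (adjusted p = 0.397).

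**Figure D2:**
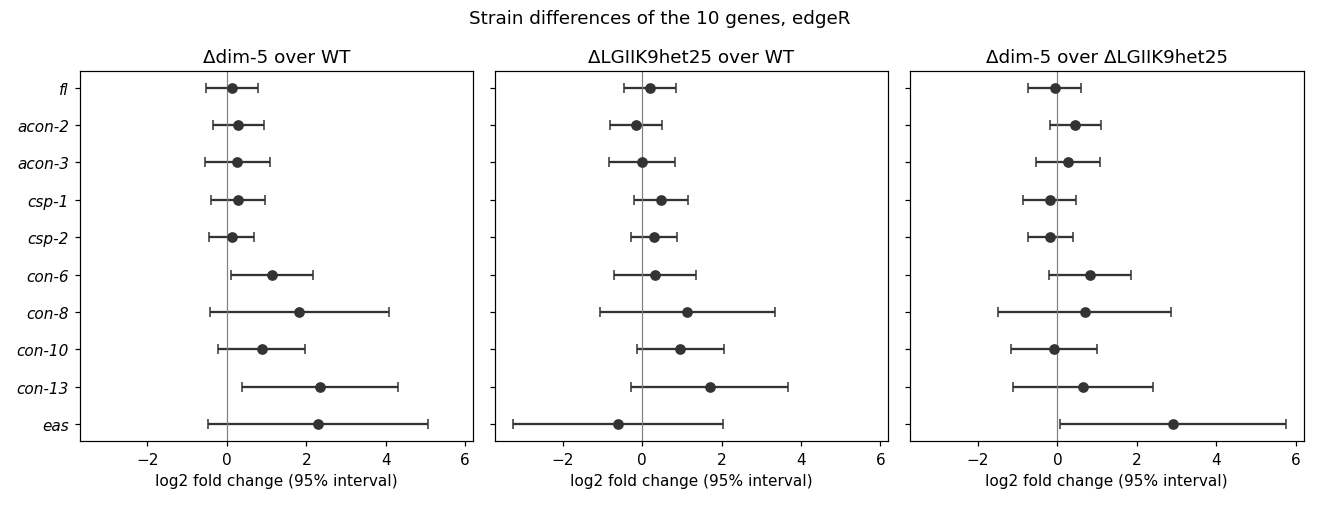
Log2 fold change of the 10 genes with 95% intervals from the edgeR fit, for Δdim-5 over WT, ΔLGIIK9het25 over WT and Δdim-5 over ΔLGIIK9het25. Intervals of the 5 regulators are narrow, and those of the products are wide, reaching from -3.26 to 2.04 for eas in ΔLGIIK9het25 over WT.

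For Δdim-5 against WT, 0 of the 10 genes passed an adjusted p of 0.05 in edgeR, where 16.5% of the 8496 tested genes did. At an unadjusted p under 0.05 there were 2, con-6 and con-13. DESeq2, which gave no adjusted p for eas, called 1 and limma-voom 0. All 10 log2 fold changes were above 0, with a median of 0.58, against a median of 0.01 over all tested genes. The products had a median of 1.83 and the regulators of 0.26. With the same scaling the 4 mycelial markers all had values below 0, with a median of -0.39. Of these, hex-1 (log2 fold change -0.50, edgeR adjusted p = 0.151) and pma-1 (log2 fold change -0.60, edgeR adjusted p = 0.0637) were lower in every Δdim-5 library than in every WT library. The part of these markers in the values of the conidiation genes was not tested. Without Δdim-5 replicate 2 the values of fl, csp-2 and eas were below 0, at -0.15, -0.16 and -0.57, and csp-1 was at 0.00. The value of csp-2 was also below 0 without WT replicate 4, at -0.024.

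For ΔLGIIK9het25 against WT, 0 of the 10 were called in edgeR, where 4.32% of all tested genes were. The count was also 0 at an unadjusted p under 0.05, with DESeq2 and with limma-voom. There were 7 log2 fold changes above 0 and 3 below, with a median of 0.31 against -0.01 over all tested genes. The largest were those of con-13 at 1.70 and con-8 at 1.14, and eas had the lowest. Between the mutants, Δdim-5 against ΔLGIIK9het25, 0 of the 10 were called, where 16.7% of all tested genes were. At an unadjusted p under 0.05 in edgeR there was 1, eas, and limma-voom called 0. DESeq2 also called 0, but it gave no adjusted p for eas in any comparison and so could not call it. Both comparisons with WT share the WT libraries.

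The groups of libraries did not overlap for 0 of the 10 genes in each comparison. Over all tested genes the share without overlap was 20.3% for Δdim-5 against WT, 11.6% for ΔLGIIK9het25 against WT and 21.3% between the mutants. The width of the intervals differed by class. The SE of the log2 fold change in Δdim-5 against WT was 0.266 to 0.379 for the regulators and 0.483 to 1.28 for the products.

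The spread between libraries of a strain was then described for each gene as the SD of log2 (CPM + 0.5) around the strain means. It was 2.19 for eas, the largest of all 8496 tested genes, and 1.86 for con-8, the fifth largest. It was 1.09 for con-13, 0.864 for con-10 and 0.824 for con-6. Within single strains the order could differ, and in Δdim-5 the SD was 0.453 for con-10, against 0.691 for acon-2 and 0.592 for fl. These 5 products all exceeded the 95th percentile of tested genes, which was 0.805. The regulators lay between 0.402 for acon-3 and 0.504 for csp-1, above the median over all genes of 0.318 and below that percentile. Against the 500 tested genes nearest in mean level, the share with a smaller spread was 100% for eas and con-8, 99.2% for con-6, 97.8% for con-10 and 97.2% for con-13. It was 20.6% for acon-3 and 81.4% to 88.2% for the other regulators.

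**Figure D3:**
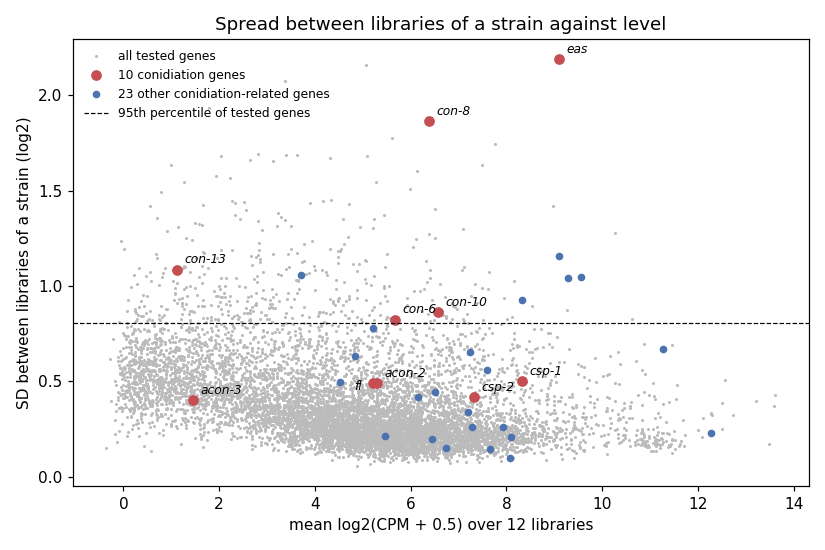
SD between libraries of a strain against mean level, both on the log2 (CPM + 0.5) scale, for all tested genes (grey), the 10 conidiation genes (red, named) and 23 further genes tied to conidiation (blue). The dashed line is the 95th percentile at 0.805, above which all 5 products lie.

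Replicate 2 was the highest library for most of the genes in both mutants but not in WT. The counts below have no share over all tested genes beside them, so they do not show a trait particular to these genes. In Δdim-5, replicate 2 was the highest library for 9 of the 10 genes and for all 5 products. In ΔLGIIK9het25, replicate 2 was the highest for 7 genes, 4 of them products, and replicate 4 was the lowest for 8 genes, 4 of them products. In WT no library was highest for more than 5 genes. WT replicate 3 was highest for 3 genes, the products con-8, con-10 and eas, and lowest for 2, acon-2 and acon-3. WT replicate 1 was highest for 5 genes, of which 1 was a product, and it was lowest for 3 products, namely con-8, con-13 and eas. In that library con-6 was at its WT maximum of 72.7 CPM while eas was at its WT minimum of 138 CPM, so the products did not move as one block in WT.

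Taken over all 10 genes, the summed level was 926 to 16357 CPM in Δdim-5, 553 to 2188 CPM in ΔLGIIK9het25 and 854 to 2874 CPM in WT. Δdim-5 replicate 2 exceeded the median of the other 3 Δdim-5 libraries 31.8-fold for eas, 7.09-fold for con-8, 6.52-fold for con-13 and 2.07-fold for con-6. For the fifth product, con-10, the ratio was 1.86-fold, below those of the regulators fl (1.90-fold), csp-1 (1.88-fold) and csp-2 (1.98-fold). It also had the highest share of unaligned reads of the 12 libraries, 19.6% against 6.25% to 14.5% in the rest. Reads aligned to several places took 0.251% of it and 0.234% of ΔLGIIK9het25 replicate 2, against 0.0804% to 0.125% of the other 10 libraries. The part of these library measures in the levels of the conidiation genes was not tested.

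**Figure D4:**
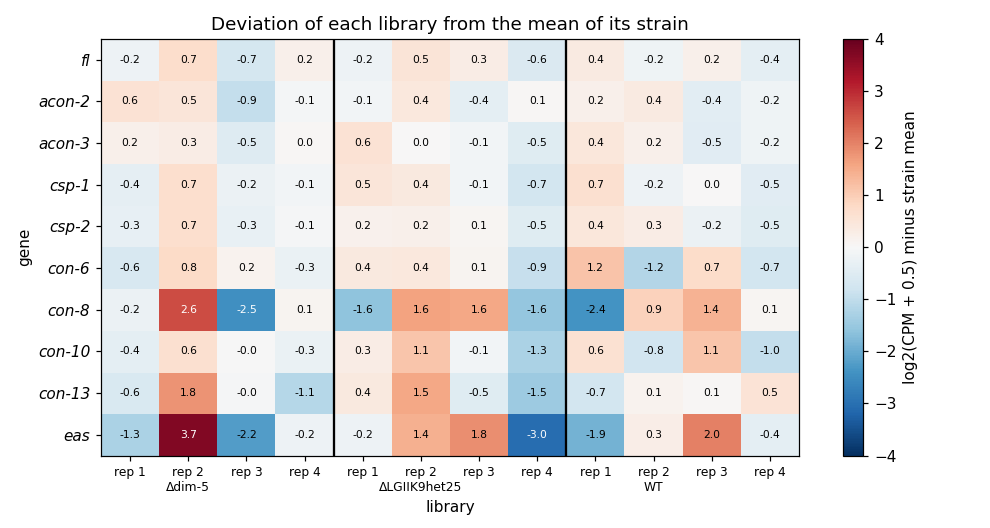
Deviation of each library from its strain mean, in log2 (CPM + 0.5), for the 10 genes (rows) and 12 libraries (columns, Δdim-5, ΔLGIIK9het25 and WT from left to right). Red is above and blue below the strain mean. The strongest colours are in the rows of eas and con-8, and Δdim-5 replicate 2 is above its strain mean for all 10 genes.

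Whether the genes rose and fell in the same libraries was tested with exact two-sided permutations of the libraries within each strain, on values with the strain means subtracted. All 45 pairs of the 10 genes were computed over 12 libraries, and by the Benjamini-Hochberg method 4 passed an adjusted p of 0.05 with Pearson's r and 7 with Spearman's rho. The genes con-8 and eas had Pearson's r = 0.90 (exact permutation p = 0.000434, adjusted p = 0.0195) and Spearman's rho = 0.90 (exact p = 0.00116, adjusted p = 0.0374). The genes con-6 and con-10 had r = 0.89 (exact permutation p = 0.00224, adjusted p = 0.0336) and rho = 0.92 (exact p = 0.00166, adjusted p = 0.0374). The separation genes csp-1 and csp-2 had r = 0.86 (exact permutation p = 0.00304, adjusted p = 0.0342) and rho = 0.85 (exact p = 0.00485, adjusted p = 0.0381). The regulator csp-1 and the product con-6 had r = 0.83 (exact permutation p = 0.0013, adjusted p = 0.0293) and rho = 0.85 (exact p = 0.00297, adjusted p = 0.0381). Without the 2 libraries farthest from the median of the first gene of each pair, r was 0.85, 0.85, 0.75 and 0.73 in the same order.

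The 3 pairs that passed with rho alone were csp-1 with con-10, fl with csp-2 and fl with csp-1, each with an adjusted exact permutation p of 0.0381 for rho. Their rho was 0.83, 0.80 and 0.82, and their r was 0.80, 0.75 and 0.74 (adjusted exact permutation p = 0.0514, 0.0893 and 0.0893). All 7 pairs had a positive r within each of the 3 strains. The pair con-6 and con-8 had r = 0.05 (exact permutation p = 0.902, adjusted p = 0.944) and rho = 0.13 (exact p = 0.706, adjusted p = 0.795). Across the 2 leading pairs, con-10 and eas had r = 0.55 (exact permutation p = 0.0647, adjusted p = 0.182), con-6 and eas r = 0.39 (exact permutation p = 0.209, adjusted p = 0.361) and con-8 and con-10 r = 0.29 (exact permutation p = 0.393, adjusted p = 0.536). Differences between these correlations were not tested. The regulator fl and eas had r = 0.76 (exact permutation p = 0.0179, adjusted p = 0.0893) and rho = 0.74 (exact p = 0.0211, adjusted p = 0.099), which missed the threshold. For this pair r was 0.94 within Δdim-5, 0.94 within ΔLGIIK9het25 and -0.07 within WT, and over all libraries it was 0.60 without the 2 farthest libraries. Of the 45 pairs, 44 had a positive r. The counts of positive pairs and of pairs that passed were not set against pairs of other tested genes. They therefore do not show a trait particular to the conidiation genes. All genes of a library share its depth and preparation.

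**Figure D5:**
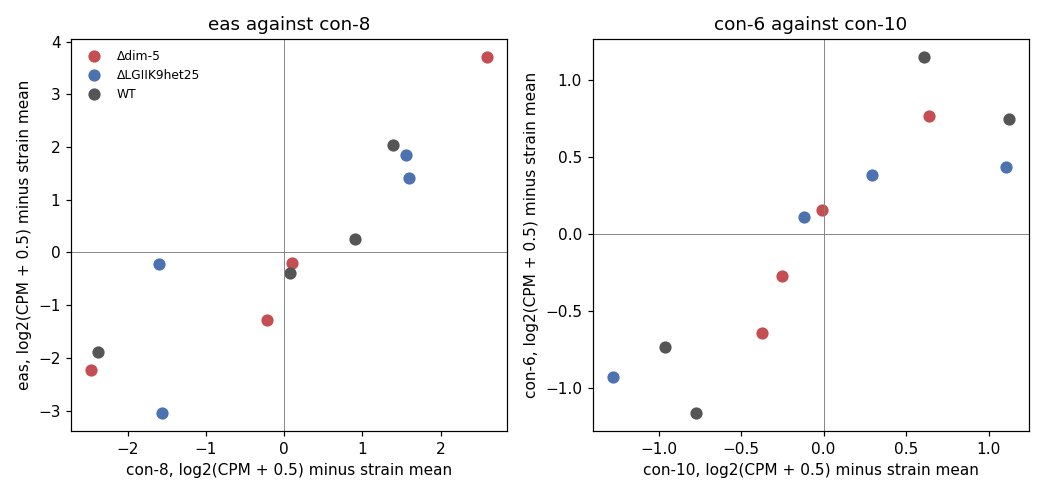
Deviation from the strain mean in log2 (CPM + 0.5) in each of the 12 libraries, eas against con-8 at left and con-6 against con-10 at right, with Δdim-5, ΔLGIIK9het25 and WT by colour. Points of every strain run from low to high along both axes, with r = 0.90 and r = 0.89.

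The genes con-10 and con-13 are neighbours on linkage group IV in the RefSeq annotation of assembly NC12. Their levels differed by a wide margin, and as a pair they had r = 0.52 (exact permutation p = 0.0765, adjusted p = 0.202) and rho = 0.42 (exact p = 0.201, adjusted p = 0.394). The genes fl and eas lie on linkage group II, on which the deleted region is named. Of the 18 distinct genes next to the 10 members, 14 were tested. In Δdim-5 against WT 2 of these were called, where 16.5% of all tested genes were. They were NCU08768 beside con-6, given above, and NCU08727 beside fl, which was higher (log2 fold change 1.51, adjusted p = 0.0212 in edgeR). In ΔLGIIK9het25 against WT 0 of the 14 were called in edgeR, where 4.32% of all tested genes were. Between the mutants 1 was called, where 16.7% of all tested genes were. It was NCU09233 beside con-8, lower in Δdim-5 (log2 fold change -0.59, adjusted p = 0.0193).

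Levels of different genes were compared as CPM per kb of gene span in NC12, introns included. In WT the order was eas at 428 ± 465, csp-1 at 124 ± 43.7, con-10 at 85.1 ± 56.9, con-6 at 45.5 ± 31.8, con-8 at 42.0 ± 30.9 and csp-2 at 35.4 ± 10.5 CPM per kb (SD, n = 4). Then came fl at 10.1 ± 2.4, acon-2 at 7.23 ± 1.78, acon-3 at 0.929 ± 0.313 and con-13 at 0.718 ± 0.382 CPM per kb. The ranges of neighbours in this order overlapped except between csp-2 and fl and between acon-2 and acon-3. In both mutants eas was also first by mean, but its range overlapped that of the next gene. The range of csp-2 was also above that of fl in both. By mean the lowest were acon-3 and con-13 in all 3 strains, though in both mutants the range of con-13 overlapped that of acon-2.

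The genes most like eas were sought among 7048 other genes with a mean of at least 5 CPM, by Pearson's r over the 12 libraries on the log2 (CPM + 0.5) scale. Since they were picked as the highest, no p is given. NCU02213 came first with r = 0.91 and Spearman's rho = 0.82, followed by NCU06123, NCU07918, NCU02211 and NCU07178 with r from 0.88 to 0.89. With strain means subtracted, NCU06123 came first with r = 0.96 and rho = 0.92, followed by NCU08557, NCU09049, NCU07806 and NCU06890 with r from 0.93 to 0.95. Each of these was above the member con-8, which had r = 0.90 with eas on the same values. NCU06123 had 102 CPM on average in Δdim-5, 34.8 CPM in ΔLGIIK9het25 and 30.8 CPM in WT. It was picked for following eas, and the part of Δdim-5 replicate 2, the highest eas library, in these means was not tested. None of these genes has a symbol in the reference table.

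A list of 23 further genes tied to conidiation held 15 regulators and signalling genes, such as the light receptor genes wc-1 and wc-2, and 8 products, such as the carotenoid synthesis genes al-1, al-2 and al-3. All 23 were tested. In Δdim-5 against WT 2 were called, both higher, where 16.5% of all tested genes were called. The clock-controlled gene ccg-6 (NCU01418) had 6763, 7536, 5868 and 5487 CPM in Δdim-5, against 4145, 4595, 3562 and 4688 CPM in WT. Every Δdim-5 library was above every WT library (log2 fold change 0.59, SE 0.169, edgeR adjusted p = 0.0288). NCU08319 had 100.0, 228, 96.7 and 152 CPM in Δdim-5, against 79.9, 112, 57.2 and 62.0 CPM in WT, with overlap (log2 fold change 0.90, SE 0.286, adjusted p = 0.048). The call of ccg-6 was lost without WT replicate 1 or 3 or Δdim-5 replicate 1 or 2, with adjusted p from 0.0637 to 0.0859. This call was also lost with the log2 non-genic percentage in the fit (adjusted p = 0.179) or the replicate block (adjusted p = 0.0625). That of NCU08319 was lost without WT replicate 1, 3 or 4, any ΔLGIIK9het25 replicate, or Δdim-5 replicate 2 or 4, with adjusted p from 0.0519 to 0.155, and with RLE factors, library totals, limma-voom, no filter or only the 2 strains. The list's median log2 fold change was -0.14, against 0.01 over all tested genes.

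In ΔLGIIK9het25 against WT 0 of the 23 were called in edgeR, DESeq2 or limma-voom, where 4.32% of all tested genes were called in edgeR, and 1 had an unadjusted p under 0.05. The median log2 fold change was 0.05. In Δdim-5 against ΔLGIIK9het25 3 were called, where 16.7% of all tested genes were. The velvet regulator ve-1 (NCU01731) was lower in Δdim-5, with 103, 77.9, 79.3 and 94.8 CPM against 113, 130, 134 and 130 CPM in ΔLGIIK9het25 (log2 fold change -0.51, SE 0.134, adjusted p = 0.0191). The clock-controlled gene ccg-14 (NCU07787) was higher in Δdim-5, with 6206, 5676, 2547 and 2537 CPM against 1259, 3096, 1270 and 909 CPM in ΔLGIIK9het25 (log2 fold change 1.38, SE 0.417, adjusted p = 0.0379). NCU08319 was higher in Δdim-5 as well (log2 fold change 0.99, SE 0.286, adjusted p = 0.0326). The call of ve-1 was lost without ΔLGIIK9het25 replicate 4 (adjusted p = 0.0526). The call of ccg-14 was lost without ΔLGIIK9het25 replicate 1, 3 or 4 or Δdim-5 replicate 1 or 2, with adjusted p from 0.0949 to 0.109, and with library totals or only the 2 strains. That of NCU08319 was lost without ΔLGIIK9het25 replicate 1, 3 or 4 or Δdim-5 replicate 2 or 4, with adjusted p from 0.0567 to 0.103.

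Wide spread between libraries was also found in this list. Of the 23 genes, 5 exceeded the 95th percentile of tested genes, namely the light-induced photoreceptor gene vvd with an SD of 1.16 on the log2 scale, NCU05964 with 1.06, the glucose-repressible gene ccg-1 with 1.05, al-1 with 1.04 and al-2 with 0.924. Markers of sexual development served as a set for another fate of the mycelium. Their 6 genes summed to 231 to 280 CPM in Δdim-5, 264 to 309 CPM in ΔLGIIK9het25 and 238 to 357 CPM in WT. Most of this was the gene pp-1, with means of 225, 217 and 256 CPM in the same order. None of the 6 was at 0 counts in all libraries of a strain, but ccg-4 was at 0 in WT replicate 1. In ΔLGIIK9het25 against WT 2 of the 6 were called, both higher, where 4.32% of all tested genes were called. They were the pheromone receptor gene pre-1 and the pheromone gene mfa-1 (adjusted p = 0.00104 and 0.00295 in edgeR). In Δdim-5 against WT 0 of the 6 were called, where 16.5% of all tested genes were. Between the mutants 2 of the 6 were called, both lower in Δdim-5, where 16.7% of all tested genes were called. The pheromone gene ccg-4 had an SD between libraries of 2.08, the third largest of all tested genes. The part of these markers in the levels of the conidiation genes was not tested.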

How the data were processed

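Counts were available for 12 libraries, and per the labels the authors deposited for each a file of raw, unnormalised read counts by gene. The submitters' processing notes name HISAT2, HTSeq and DESeq2. Per the file names the counting ignored strand. No version, build or annotation is stated in what was used here. Entries without a gene (5 in each file) did not enter library sizes or tests. They held reads outside genes (3.62% to 36.8% of a library), ambiguous reads (1.78% to 3.00%), unaligned reads (6.25% to 19.6%) and reads aligned to several places (0.0804% to 0.251%).

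Strain and replicate were taken from the sample titles. Genes kept by filterByExpr (8496) were TMM-scaled and tested by edgeR 4.0.16 (R 4.3.3) with two-sided quasi-likelihood F-tests in a single fit of all 12 libraries. P-values were adjusted over these genes by Benjamini-Hochberg, and a call means an adjusted p under 0.05. The SE of a log2 fold change was obtained by dividing it by the square root of F. Libraries of 1 strain always differed by more than sampling noise (smallest chi-square per degree of freedom 20.9). Alternatives were DESeq2 1.42.0, limma-voom (limma 3.58.1), other scalings, filters and thresholds, fits of 2 strains, a replicate block and leaving out each library. A covariate, the log2 of the percentage of non-genic reads, was added after the data had been seen.

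The members and lists were chosen with earlier results of these data known. Named are the 10 members, dim-5, up to 5 called genes per comparison of the 23 further genes, and the 5 genes most like eas by each measure. Genes named for wide spread, neighbours and markers were chosen after their values were seen. Symbols come from the RefSeq table of NC12, which held 9729 of the 9730 IDs. Sequences are not used here. The fits were tested on simulated data.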

Additional observations from a re-analysis of the deposited data

How the results depend on the processing

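No member was called in any comparison under any alternative, except in Δdim-5 against WT. There the count was 1 with DESeq2 (con-13) and 1 with the log2 non-genic percentage as covariate (con-13). It was 0 to 1 when 1 library was left out (con-6 without WT replicate 1). Of 681 values of members under alternatives, 34 changed sign, and none of those was called. The cause of the changes below was not tested.

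All genes called in ΔLGIIK9het25 against WT numbered 617 with DESeq2, 196 with a mean of at least 5 CPM and 154 at an adjusted p under 0.01, against 367 as reported. At 0.01 there were 687 in Δdim-5 against WT and 637 between the mutants. Leaving out 1 library gave 1061 to 1501 in Δdim-5 against WT, 216 to 402 in ΔLGIIK9het25 against WT and 939 to 1452 between the mutants. Of the 23 further genes, Δdim-5 against WT called 1 with RLE factors, limma-voom or no filter, 0 at 0.01 and 0 to 3 with 1 library left out. Between the mutants it was 0 at 0.01 and 0 to 3 with 1 library left out.

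Signs changed as follows. For acon-3 in ΔLGIIK9het25 against WT, at -0.0039 as reported, the log2 value was 0.0069 with RLE, 0.0115 with library totals, 0.0393 with upper-quartile factors, 0.0081 with DESeq2, 0.0149 with only the 2 strains, 0.0083 with the replicate block and 0.187 with the covariate. With the covariate acon-2 was at 0.0440 there. Between the mutants con-10 was at 0.0978 with limma-voom, 0.0858 with the block and 0.573 with the covariate, which also gave fl 0.139, csp-1 0.150 and csp-2 0.0937. With 1 library left out, Δdim-5 against WT ran from -0.15 to 0.32 for fl, -0.16 to 0.28 for csp-2 and -0.57 to 3.39 for eas. ΔLGIIK9het25 against WT ran from -0.30 to 0.22 for acon-3 and -1.15 to 0.48 for eas. Between the mutants the ranges were -0.37 to 0.12 for fl, -0.87 to 1.14 for con-8, -0.37 to 0.38 for con-10 and -0.55 to 1.54 for con-13.

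The highest over the lowest eas library was 4.10 to 61.9 in Δdim-5, 4.18 to 30.2 in ΔLGIIK9het25 and 4.42 to 15.2 in WT with 1 library left out. The median coefficient of variation of the members was 29.9% to 46.9% in Δdim-5, 31.2% to 44.7% in ΔLGIIK9het25 and 29.2% to 52.5% in WT.

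Same-numbered libraries of different strains had deviations correlated at -0.20 to 0.52. The same number correlated best in 3 of 12 combinations of comparison and number, so the numbers were not taken as pairs. From the highest non-genic percentage down, the order of replicates was 2, 1, 3 and 4 in both WT and ΔLGIIK9het25. It was 1, 2, 3 and 4 in Δdim-5. For vvd, WT replicates 1 to 4 had 843, 871, 144 and 99.7 CPM. ΔLGIIK9het25 had 894, 1305, 340 and 264 CPM, and Δdim-5 had 849, 1054, 1030 and 686 CPM. Whether same-numbered libraries were prepared together was not tested. With the replicate block 1504, 371 and 1467 genes were called in the 3 comparisons, 0 members in each, and 2, 0 and 3 of the further genes. In Δdim-5 against WT the 2 were NCU08319 and vvd, so ccg-6 was lost (adjusted p = 0.0625) and vvd gained. Low counts limit acon-3 and con-13, which had no value under the filter of 5 CPM. DESeq2 gave no adjusted p for eas.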
